A study of Rattus norvegicus with 12 samples.

Results

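The genes of the insulin receptor pathway were followed in the lumbar mammary gland of young female Wistar rats whose mothers had received a normal or a low protein diet in pregnancy. The members were 10 genes chosen by their known place in the pathway, namely Insr, Irs1, Irs2, Pik3r1, Akt1, Akt2, Foxo1, Ptpn1, Socs3 and Slc2a1, and a probe belonged to a member when the array annotation gave that gene symbol. Of the 26456 gene names on the array, 9 were members, with 12 probes among them, and Foxo1 was not analysed here. All 9 passed the filter on dim probes, which 20172 of the gene names passed.

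Dams of the NP groups ate a diet with 17% protein throughout pregnancy and dams of the LP groups one with 8.8% protein. After birth, mothers and pups of every group received the same standard chow, so that the LP and NP rats compared here differed in the diet before birth. Rats were taken at day 21, at weaning and the start of pubertal ductal growth, and at day 28, at its end. Each of the 4 groups had 3 rats with 1 array each, and the rats keep the names of their labels, such as NP 4a. Total RNA came from the whole gland after visible lymph nodes had been removed, so that ducts, fat and vessels were measured together and fewer cells of a type cannot be told apart from less RNA per cell. The labels do not tie rats to litters, and rats of a group may be littermates.

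Insulin binds a receptor tyrosine kinase at the cell surface, encoded by Insr. The receptor phosphorylates the adaptor proteins encoded by Irs1 and Irs2, which recruit phosphatidylinositol 3-kinase through its regulatory subunit, encoded by Pik3r1. The lipid this kinase makes brings the kinases AKT1 and AKT2 to the membrane, and these phosphorylate many substrates, among them the transcription factor FOXO1, which then leaves the nucleus. The phosphatase encoded by Ptpn1 and the adaptor encoded by Socs3 restrain the receptor and its adaptors, and Slc2a1 encodes the glucose transporter GLUT1, the main route of glucose into mammary epithelium. Arrays measure the transcripts of these genes, not phosphorylation, by which most of the signal passes.

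Insr, Irs1 and Ptpn1 were each read by a pair of probes, and the first 30 bases of these 60-base probes, as the array files give them, show which stretches of the transcripts were read. The first line of each pair is the brighter probe, which stands for the gene in all values given, and capitals are not used because no part is singled out.
Insr, brighter probe: atggagaatgtccccttggatcgttcctct
Insr, second probe: atgttacatttttctctggattgatgcttg
Irs1, brighter probe: gagtgggaagaatacttaaaacaaggctaa
Irs1, second probe: gaggatttaagcacctatgccagcatcaac
Ptpn1, brighter probe: ccaacttgtgtctcactaatgggtctgcat
Ptpn1, second probe: aacctgttcaggagaagtagaggaaatgcc
On the rn4 assembly named in the array annotation, the brighter Insr probe lies at chr12:3086616-3086675 on the plus strand and the second one 924 bases further. The Irs1 probes lie at chr9:81585685-81585744 and chr9:81633784-81633843 on the minus strand, 48099 bases apart. The Ptpn1 probes lie at chr3:159119103-159119162 and chr3:159116656-159116715 on the plus strand, 2447 bases apart. The annotation does not give their exons.

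RefSeq lists a start of the gene for 9 of the 10 members on the GRCr8 assembly, in the table used here. The window from 250 bases before to 50 after this listed start is called the promoter. The promoter of Irs2 was not analysed here. The bases before the start of Insr are shown because this window, on either strand, held the forkhead motif TGTTTAC, which FOXO proteins recognise, and those of the other members did not. Capitals mark the motif, which begins 100 bases before the start, within chr12:6128804-6129053 on the minus strand.
Insr promoter: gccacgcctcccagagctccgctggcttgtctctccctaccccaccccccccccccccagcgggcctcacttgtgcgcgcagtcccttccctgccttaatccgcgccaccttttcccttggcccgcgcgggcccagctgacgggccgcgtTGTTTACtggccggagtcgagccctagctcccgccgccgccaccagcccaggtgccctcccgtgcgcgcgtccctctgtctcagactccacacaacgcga
The motif stood in 3.78% of 33469 rat promoters of that length. The looser motif TTCNNNGAA of STAT factors, which act on Socs3, was in 8.87% of promoters and in none of the 9 members' windows. The listed starts were not checked against the start of transcription. For Akt1 and Socs3 the start codon lies within the 50 bases after the listed start, so their windows may not hold the promoter. Bases outside the windows were not searched, so that nothing is said of either motif elsewhere near Socs3 or the other members. The match is a description of the letters, and the motif was not tested for binding.

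The arrays gave signals well above background at 74.8% to 79.6% of their gene spots, and 0 gene spots were saturated. All values are log2 signals relative to the 75th percentile of the array, so that a difference of 1 is a doubling and a negative value lies below that percentile. Differences between groups are log2 differences with their standard error (SE), from 1 limma fit over the 12 arrays and 23177 probes, and a gene was called when its p, adjusted by the Benjamini-Hochberg method over all these probes, was under 0.05. The ages were hybridised on separate slides, and a difference between ages cannot be told apart from one between slides. The array of LP 6a at day 21 stood apart, with a median correlation of 0.960 with the others against 0.974 to 0.989 for the rest. Its lymphocyte markers averaged -5.66, against -0.79 to 0.67 on the other 11 arrays.

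None of the 9 members was called between LP and NP rats at either age, and none between the ages. The lowest p values among them belonged to the ages, with the values of both AKT genes lower on every day 28 array than on any day 21 array. Socs3 was the member with the lowest p between the diets at day 28, with a lower mean in LP rats at both ages. The plot of the members by array shows the 12 values of each gene.

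**Figure D1:**
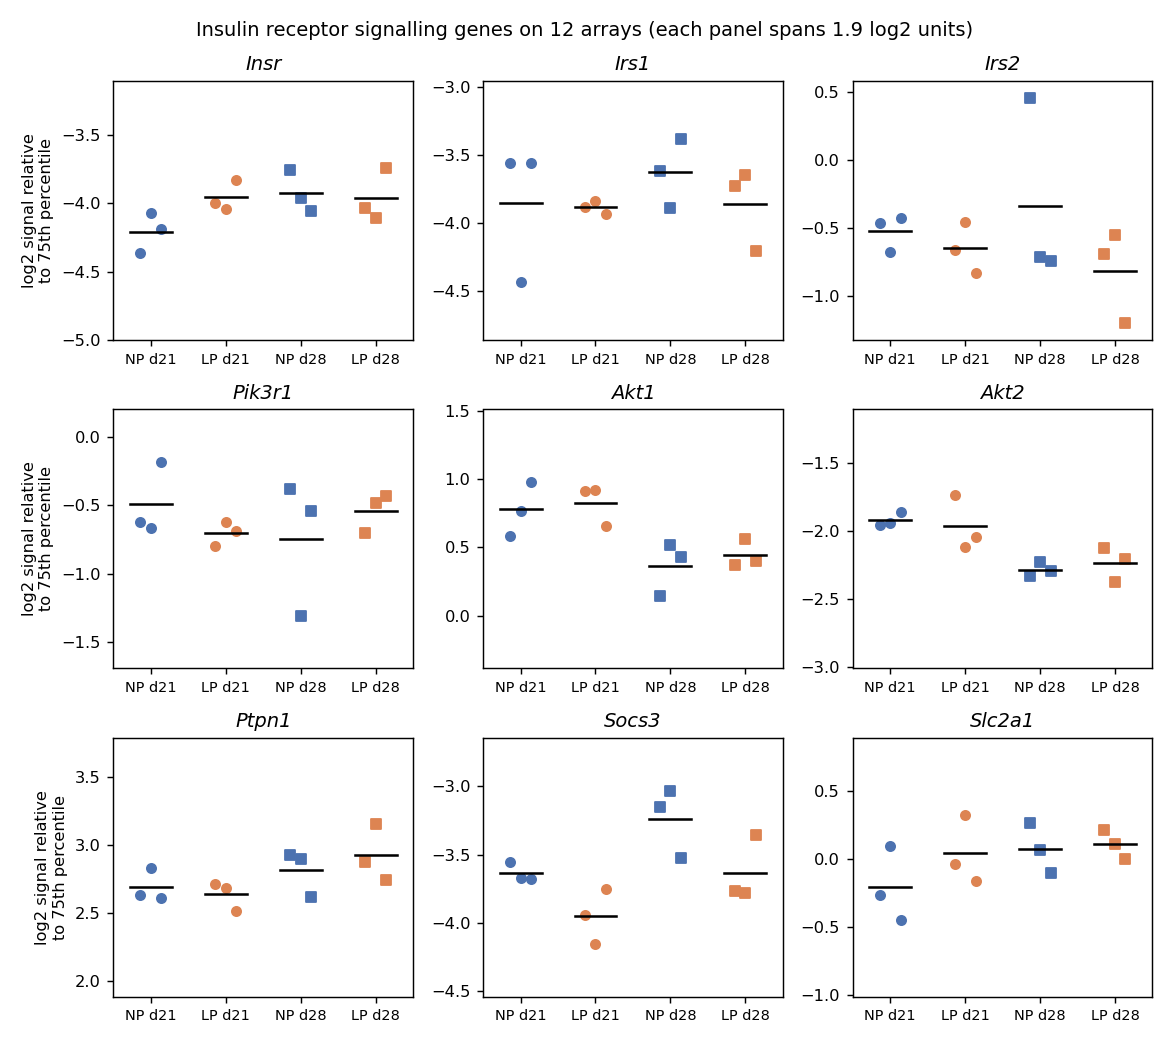
Log2 signal relative to the 75th percentile of the array (vertical axis) of the 9 measured members in NP (blue) and LP (orange) rats at day 21 (circles) and day 28 (squares). Each point is 1 rat, the bars are means of 3 rats, and every panel spans the same range. Akt1 and Akt2 lie lower at day 28 without overlap, and single NP rats stand apart for Irs2 (0.46) and Pik3r1 (-1.31).

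The first question was whether the maternal diet altered these transcripts at the start of pubertal ductal growth. At day 21, 0 of 9 members were called between LP and NP rats, as were 0% of all probes, and the lowest adjusted p among members was 0.861 in limma. No member, 0 of 9, had an unadjusted p under 0.05, which 4.36% of all probes had. The values of LP and NP rats did not overlap for Insr and Socs3, which are 2 of 9 members, while 11.5% of all probes did not overlap. The median difference was -0.048 over the members and 0.0098 over all probes.

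Insr, the receptor itself, was -4.36, -4.07 and -4.19 in NP rats and -3.99, -4.04 and -3.82 in LP rats of day 21. Every LP rat was above every NP rat, with LP 6a just above NP 5a. The difference of 0.25 (SE 0.13, n = 3 per group) was 1.19-fold, with a 95% interval from 0.970-fold to 1.47-fold, and did not pass (adjusted p = 0.861 in limma). The second Insr probe gave the opposite direction, at -0.20 (SE 0.33). It was dimmer, with 9 of 12 arrays well above background, so that its values carry less precision. The brighter probe was itself read by 1 spot per array, with signals from 93.1 to 154.2. With both probes averaged, the Insr difference at day 21 was 0.026.

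Of the adaptors that the receptor phosphorylates, Irs1 lay between -4.43 and -3.56 in NP rats and between -3.93 and -3.84 in LP rats. NP 5a alone had -4.43, and the other NP rats were both at -3.56. The difference was -0.032 (SE 0.24), and the second probe gave 0.11 (SE 0.19). Irs2 had values of -0.47, -0.67 and -0.43 in NP rats and -0.66, -0.46 and -0.83 in LP rats, a difference of -0.12 (SE 0.30). The groups of both adaptors overlapped.

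Pik3r1, which links the adaptors to the lipid kinase, was -0.62, -0.67 and -0.18 in NP rats and -0.80, -0.62 and -0.69 in LP rats. NP 6a was the highest, and the groups overlapped at their edges, where NP 4a and LP 6a had the same rounded value. The difference was -0.21 (SE 0.23). Without NP 6a it was -0.058.

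The AKT genes were close together in the diets of day 21. Akt1, the widely expressed form, differed by 0.05 (SE 0.14), with a 95% interval from 0.833-fold to 1.29-fold, and Akt2, the form most tied to glucose uptake in insulin's target tissues, by -0.048 (SE 0.12), from 0.810-fold to 1.16-fold. For both genes a mean change beyond these bounds lay outside the interval at this age.

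Of the genes that restrain the receptor, Ptpn1 differed by -0.0535 (SE 0.14) and its second probe by 0.010. Socs3, which is raised by cytokines through STAT3 and blocks the receptor's access to its adaptors, was -3.55, -3.68 and -3.68 in NP rats and -3.95, -4.15 and -3.75 in LP rats of day 21. Every LP rat was below every NP rat. The difference was -0.31 (SE 0.17), a level of 0.805 of that in NP rats with a 95% interval from 0.623 to 1.04, and did not pass (adjusted p = 0.861 in limma). The lowest value was that of LP 6a, the array whose lymphocyte markers were low, and without it the difference was -0.21 (SE 0.18).

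The glucose transporter gene Slc2a1 was -0.26, 0.095 and -0.45 in NP rats and -0.038, 0.32 and -0.16 in LP rats. The highest value was that of LP 6a and the groups overlapped. The difference of 0.25 (SE 0.17) had a 95% interval from 0.910-fold to 1.55-fold (adjusted p = 0.862 in limma). It was 0.11 without LP 6a, 0.13 without NP 6a and 0.40 without NP 5a. With the replicate number as a block it was 0.50, a value that rests on NP and LP 4a and 6a alone.

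The same comparison was made at the end of this growth period. At day 28, 0 of 9 members and 0% of all probes were called, and the lowest adjusted p among members was 0.581. Socs3 was the 1 member with an unadjusted p under 0.05, where 8.07% of all probes had one. The LP and NP rats overlapped for every member, while 16.8% of all probes did not overlap. The members' median difference was 0.034, against -0.048 over all probes.

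Socs3 was -3.15, -3.04 and -3.53 in NP rats of day 28 and -3.77, -3.78 and -3.36 in LP rats. LP 7f lay above NP 6f, and otherwise the LP rats were below the NP rats. The difference was -0.40 (SE 0.17), a level of 0.760 of that in NP rats with a 95% interval from 0.587 to 0.982 (adjusted p = 0.581 in limma). Its direction was negative at both ages under all 23 alternative analyses run at each, with values from -0.54 to -0.16 at day 28. Alternatives that changed only the filter, the variance estimate or the arrays of the other age left the difference as it was. Their sign was therefore fixed in advance and adds nothing. At day 28 the adjusted p lay between 0.316 and 0.946 in limma over the alternatives. The alternatives include the slide row as a covariate, since all NP arrays and 1 of the 3 LP arrays of each age lay in the upper row.

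Irs2 had the widest spread of the members at day 28. Its values were 0.46, -0.71 and -0.75 in NP rats and -0.69, -0.55 and -1.20 in LP rats, so that NP 4f stood more than 1 log2 unit above the other NP rats. The 2 spots of the probe on the array of NP 4f lay at 0.44 and 0.47, so that the spots gave the same picture. The difference of -0.48 (SE 0.30) had a 95% interval from 0.452-fold to 1.14-fold, and was -0.083 without NP 4f. Irs1 differed by -0.23 (SE 0.24) and its second probe by -0.26 (SE 0.19), with overlapping groups for both.

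A single NP rat also stood apart for Pik3r1, which was -0.38, -1.31 and -0.54 in NP rats and -0.70, -0.48 and -0.43 in LP rats. NP 5f was the low one. The 2 spots of the probe on its array lay at -1.56 and -1.07, the widest spot-to-spot SD of any member probe (0.34), and the array had the lowest 75th percentile, a signal of 1451 against 1770 to 2369.6 on the others. The difference was 0.21 (SE 0.23) and turned to -0.079 without NP 5f.

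The remaining members were near 0 between the diets at day 28. Insr differed by -0.035 (SE 0.13) and its second probe by 0.22 (SE 0.33). Akt1 differed by 0.081 (SE 0.14), Akt2 by 0.048 (SE 0.12), Ptpn1 by 0.11 (SE 0.14) and Slc2a1 by 0.034 (SE 0.17). Over the brighter probes of these 5 genes the widest 95% interval reached 1.34-fold. Larger mean changes lay outside the intervals of these probes, while with 3 rats per group the intervals left room for smaller ones. For Insr this bound does not hold with the second probe, whose interval reached 1.93-fold. The plot of fitted differences gives all members side by side.

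**Figure D2:**
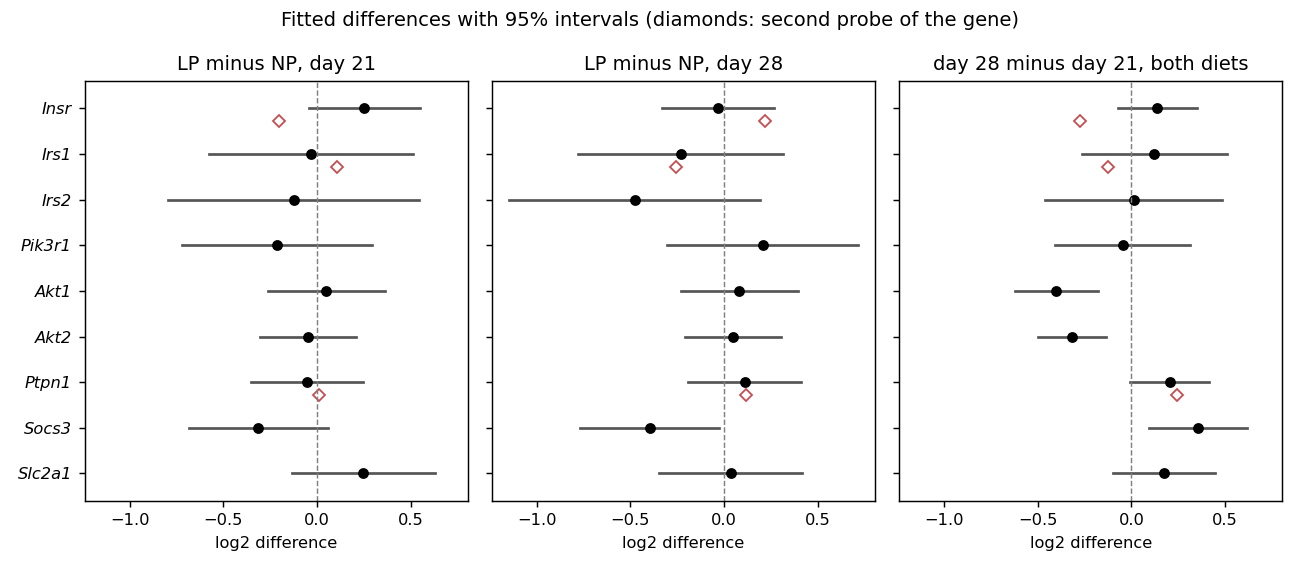
Fitted log2 differences (horizontal axis) of the 9 measured members for LP minus NP at day 21, LP minus NP at day 28, and day 28 minus day 21 over both diets. Filled points are the brighter probe with its 95% interval from limma (not adjusted for the number of genes), and open diamonds the second probe of Insr, Irs1 and Ptpn1. Intervals leave out 0 for Socs3 at day 28 and, between the days, for Akt1, Akt2 and Socs3, of which none passed the adjusted threshold.

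Whether the diet difference itself changed between the ages was tested as an interaction. It was called for 0 of 9 members and for 0% of all probes, and 0 members had an unadjusted p under 0.05, against 2.26% of all probes. The interaction was -0.084 (SE 0.24) on the log2 scale for Socs3, whose diet difference was -0.31 at day 21 and -0.40 at day 28. For Insr it was -0.29 (SE 0.19), while its second probe gave the opposite direction at 0.42 (SE 0.46). For Pik3r1 the interaction was 0.42 (SE 0.32). No member had an adjusted p below 0.9999 in limma.

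The other question was how the pathway differed between the start and the end of pubertal ductal growth. Between the ages, taken over both diets, 0 of 9 members were called, where 1.82% of all probes were, and the lowest adjusted p among members was 0.0755. Those with an unadjusted p under 0.05 were 3 of 9 members, Akt1, Akt2 and Socs3, against 19.3% of all probes. The 6 day 28 values did not overlap the 6 day 21 values for Akt1 and Akt2, while this held for 3.73% of all probes. The members' median difference was 0.12, against 0.012 over all probes.

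Akt1 was 0.59, 0.77 and 0.98 in NP rats and 0.91, 0.92 and 0.66 in LP rats of day 21. At day 28 it was 0.14, 0.52 and 0.43 in NP rats and 0.37, 0.56 and 0.40 in LP rats. The highest day 28 value, that of LP 6f, lay below the lowest day 21 value, that of NP 4a. The difference was -0.40 (SE 0.10), a level of 0.758 of that at day 21 with a 95% interval from 0.650 to 0.884 (adjusted p = 0.0755 in limma). The means of the diets differed by -0.42 in NP rats and -0.38 in LP rats.

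Akt2 was -1.96, -1.94 and -1.86 in NP rats and -1.74, -2.12 and -2.05 in LP rats of day 21. At day 28 it was -2.33, -2.23 and -2.30 in NP rats and -2.12, -2.38 and -2.21 in LP rats. LP 6a of day 21 and LP 4f of day 28 were nearly level, and the other rats of the ages lay further apart. The difference was -0.32 (SE 0.081), a level of 0.802 of that at day 21 with a 95% interval from 0.707 to 0.910 (adjusted p = 0.0816 in limma). It was -0.37 in NP rats and -0.27 in LP rats.

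Both AKT differences kept their sign under all 22 alternatives and passed the adjusted threshold under none. Changed filters, variance estimates, the replicate block and the slide row left the age difference as it was, so their sign was fixed. The adjusted p values in limma lay between 0.0584 and 0.165 for Akt1 and between 0.0578 and 0.179 for Akt2. Across the 12 arrays the genes had a Pearson correlation of 0.74, and of 0.18 once each group's mean was taken off. The shared pattern was therefore the one between the ages, which the slides share.

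Socs3 went the other way between the ages. At day 21 its mean was -3.64 for NP (SD 0.073, n = 3) and -3.95 for LP (SD 0.20, n = 3). At day 28 it was -3.24 for NP (SD 0.26, n = 3) and -3.64 for LP (SD 0.24, n = 3). From low to high the groups stood as LP day 21, NP day 21, LP day 28 and NP day 28, and the middle ones had the same rounded mean. The age difference was 0.36 (SE 0.12), 1.28-fold with a 95% interval from 1.07-fold to 1.54-fold (adjusted p = 0.147 in limma), at 0.40 in NP rats without overlap and 0.31 in LP rats with overlap.

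Ptpn1, the other restraining gene, differed between the ages by 0.20 (SE 0.0955, adjusted p = 0.278 in limma), and its second probe gave 0.24 (SE 0.09, adjusted p = 0.185 in limma). In LP rats the 3 day 28 values of either probe lay above the 3 day 21 values, at 2.87, 3.15 and 2.74 against 2.71, 2.68 and 2.51 for the brighter one. In NP rats the ages overlapped.

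The receptor and its adaptors gave no such order. Insr differed by 0.14 (SE 0.095) between the ages, with 0.28 in NP rats, whose ages did not overlap, and -0.0067 in LP rats. The share of all probes without overlap between the ages within a diet was not taken. The overlaps given for Insr, Socs3 and Ptpn1 within a diet therefore have no background beside them. The second Insr probe gave -0.27 (SE 0.23). Irs1 differed by 0.12 (SE 0.17) with its brighter probe and by -0.13 (SE 0.13) with the other, Irs2 by 0.012 (SE 0.21) and Pik3r1 by -0.047 (SE 0.16). Slc2a1 differed by 0.17 (SE 0.12), with a 95% interval from 0.936-fold to 1.36-fold and overlapping ages in both diets.

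How far a value can be read as the level of the gene was visible where a pair of probes existed. The probes of Ptpn1 followed each other over the 12 arrays, with a Pearson correlation of 0.90. Those of Irs1 had 0.58, and those of Insr -0.062. For Irs1, whose brighter probe had 10 spots, NP 5a of day 21 was the lowest array with both probes (-4.43 with each), so that this rat's low value did not rest on a single stretch of sequence. For Insr, the pair of probes whose first bases are printed above shared no order of the arrays, and the direction of the fitted Insr difference turned with the probe between the diets at either age and between the ages over both diets.

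**Figure D3:**
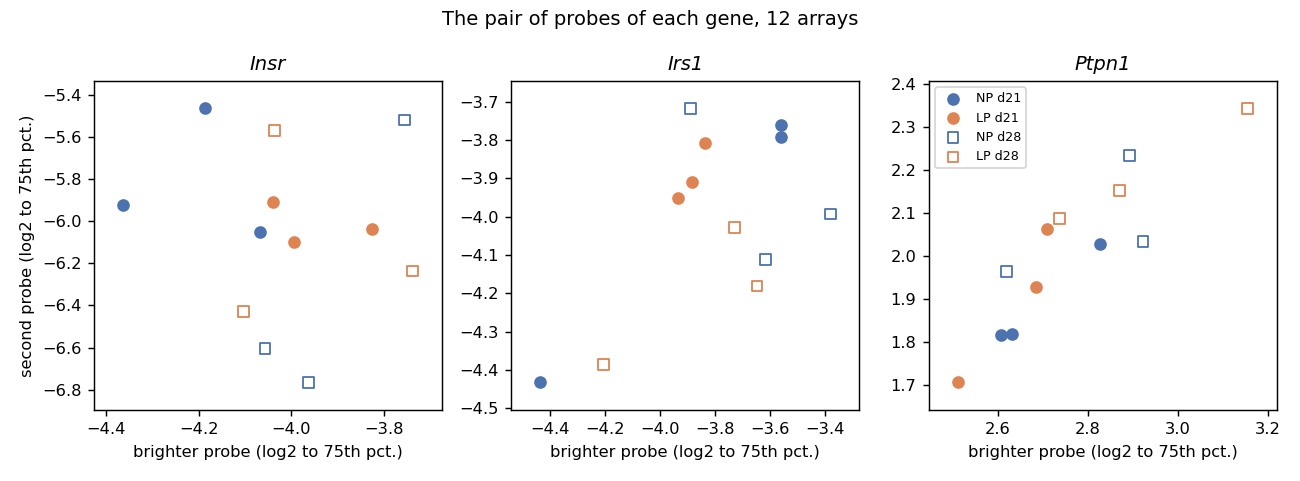
Log2 signal relative to the 75th percentile of the brighter probe (horizontal axis) and the second probe (vertical axis) of Insr, Irs1 and Ptpn1, each point 1 rat, with NP in blue, LP in orange, day 21 as filled circles and day 28 as open squares. The Ptpn1 probes follow each other (Pearson correlation 0.90) while the Insr probes do not (-0.062).

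Other genes of the pathway were read from 6 lists holding 119 genes, of which 112 were tested. They cover regulators beside the receptor, the lipid kinase and its phosphatases, AKT substrates with the mTOR branch, FOXO target genes, glucose transport with metabolic genes that insulin raises, and STAT3 with immediate-early genes. Between the diets 0 of the 112 were called at either age, and 3 at day 21 and 5 at day 28 had an unadjusted p under 0.05, where 4.36% and 8.07% of all probes had one. Between the ages 1 gene was called and 23 had an unadjusted p under 0.05, of which 15 were higher and 8 lower at day 28. Over all probes 1.82% were called and 19.3% had an unadjusted p under 0.05.

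The called gene was Pik3r2, which encodes another regulatory subunit of phosphatidylinositol 3-kinase, the counterpart of the Pik3r1 product. It was 0.59, 0.64 and 0.90 in NP rats and 0.71, 0.84 and 0.52 in LP rats of day 21, and 0.20, 0.34 and 0.35 in NP rats and 0.36, 0.30 and 0.33 in LP rats of day 28. All 6 day 28 values lay below all 6 day 21 values. Pik3r2 fell by 0.39 on the log2 scale (SE 0.081, adjusted p = 0.0468 in limma), while Pik3r1 differed by -0.047. The sign held under all 22 alternatives, of which those that left the age difference as it was could not change it. The call held under 4, with adjusted p values between 0.0331 and 0.117 in limma. No analysis with 1 array left out kept the call.

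**Figure D4:**
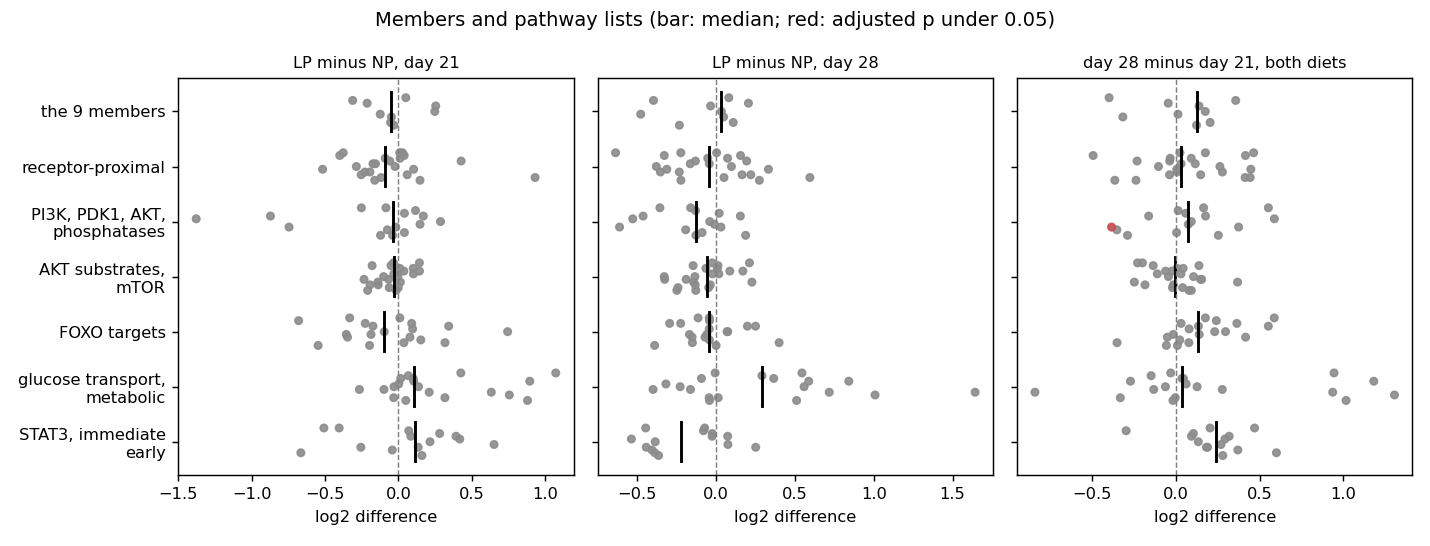
Log2 differences (horizontal axis) of the 9 members and of the tested genes of the 6 pathway lists for LP minus NP at day 21, LP minus NP at day 28 and day 28 minus day 21, each point 1 gene and each black bar the median of its row. The red point is Pik3r2 (-0.39), the 1 gene with an adjusted p under 0.05.

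At day 21 the list genes with the lowest p between the diets were G6pc, a gluconeogenic enzyme and FOXO target, at -0.68 (SE 0.23), Grb7, an adaptor of receptor tyrosine kinases, at 0.93 (SE 0.39), and Inpp5d, a lipid phosphatase of blood cells, at -0.87 (SE 0.39). Inpp5d lay between -0.47 and -0.30 in NP rats and between -2.39 and -0.57 in LP rats, and was -0.30 without LP 6a, the array with the low lymphocyte markers. The value of Grb7 was highest on the same array, and its difference was 0.52 without LP 6a. Each of these genes had an adjusted p of 0.861 in limma.

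At day 28 they were Gsk3a, an AKT substrate, at -0.33 (SE 0.13), Lif, a cytokine that signals through STAT3, at -0.54 (SE 0.21), and Bcl3, a STAT3 target, at -0.44 (SE 0.19), each with an adjusted p of 0.581. Lif was between -4.37 and -4.08 in NP rats and between -4.94 and -4.50 in LP rats of day 28, without overlap, and in the opposite order at day 21, where the groups overlapped. The change of its diet difference between the ages was -0.95 (SE 0.30), the lowest p among the list genes for the interaction (adjusted p = 0.9999 in limma). The others named by that rule were G6pc at 0.64 (SE 0.32) and Socs2, a relative of Socs3, at 0.38 (SE 0.21). The STAT3 and immediate-early list as a whole had a median diet difference of 0.11 at day 21 and -0.22 at day 28, with 0 of 14 tested genes called at either.

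Between the ages the same list had a median of 0.24, where the median of all probes was 0.012. It had 0 of 14 called and 4 higher at an unadjusted p under 0.05. Of all 23177 probes, 2294 were higher and 2169 lower at that unadjusted threshold, and 1.82% were called. Stat3, which encodes the factor that drives Socs3, was one of the 4, at 0.32 (SE 0.10, adjusted p = 0.133 in limma). It was chosen for mention with its values known. The list of glucose transport and metabolic genes had a median of 0.035 over its 19 genes, with 0 called.

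Marker genes of the cells in the gland were read beside these values. The luminal epithelium list, all 8 genes well above background on every array, averaged 0.66 in NP and 1.48 in LP rats of day 21 and 0.86 and 1.37 at day 28, with 0 of 8 called at either age and a median difference of 0.79 and 0.50. Its arrays ranged from 0.13 to 1.36 in NP and from 0.65 to 2.27 in LP rats of day 21. At day 28 they ranged from 0.21 to 1.32 in NP and from 1.30 to 1.51 in LP rats, so that the diets overlapped at both ages. The adipocyte list averaged between 3.19 and 3.32 in the 4 groups. The lymphocyte list averaged 0.27 in NP and -1.97 in LP rats of day 21, and 0.52 and -0.17 at day 28. Skeletal muscle markers ranged from -4.52 to 2.90 over the LP arrays and from -1.99 to 2.48 over the NP arrays.

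For Socs3 the mean of the lymphocyte list was lower in LP rats at both ages, as was that of Socs3. The single LP rats did not keep this order. At day 21 LP 6a was the lowest in both (-5.66 and -4.15). At day 28 LP 7f had the lowest lymphocyte value (-0.79) and the highest Socs3 value of the LP rats (-3.36). Between LP and NP rats that list had 0 of 6 genes called at either age, and its arrays ranged from 0.19 to 0.38 in NP and from -5.66 to 0.094 in LP rats of day 21, and from 0.35 to 0.67 and -0.79 to 0.22 at day 28. The macrophage list averaged -0.47 and -0.69 in NP and LP rats of day 21 and -0.54 and -0.34 at day 28. The part of either list in the Socs3 values was not tested. For Akt1 and Akt2, the endothelial list had a median age difference of -0.17 with 0 of 5 called, the fibroblast list -0.028 with 0 of 5, and the blood list -1.17 with Alas2, an enzyme of heme synthesis in young red cells, called at -1.83 (adjusted p = 0.00516 in limma). Their part in the AKT values was not tested either.

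**Figure D5:**
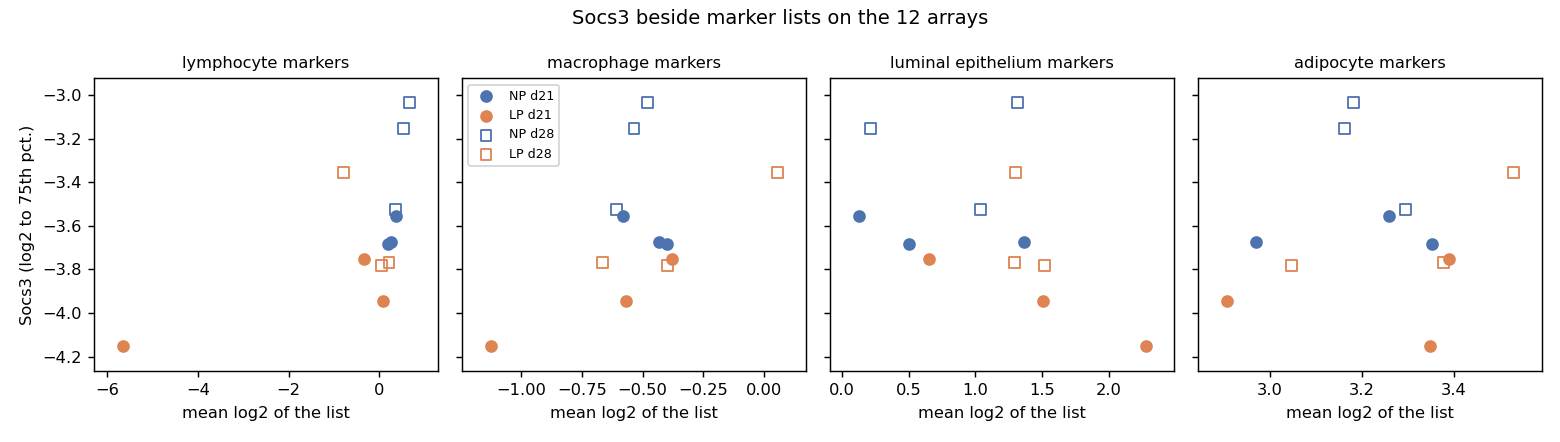
Socs3 (vertical axis, log2 signal relative to the 75th percentile) beside the mean log2 value of 4 marker lists (horizontal axes) on the 12 arrays, each point 1 rat, with NP in blue, LP in orange, day 21 as filled circles and day 28 as open squares. LP 6a of day 21 lies at the lower left for lymphocyte markers (-5.66) and at the lower right for luminal markers (2.27).

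The genes whose pattern over the 12 arrays was most like that of each member were searched among 11633 genes well above background on every array. The arrays share slides and tissue makeup, and the values are descriptions. Socs3 lay closest to Myd88, the adaptor of Toll-like receptors, to Irf1, an interferon-response factor, and to Arhgef6, a guanine nucleotide exchange factor, each with a Pearson correlation of 0.93. Akt1 lay closest to Ppp4r1 (0.97), Def8 (0.97) and Ppp5c (0.96), of which Ppp4r1 and Ppp5c encode parts of serine/threonine phosphatases. Akt2 lay closest to Eng, a TGF-beta co-receptor of endothelium (0.93), Abcb8 (0.93) and Smg5 (0.92).

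For Irs2 the closest genes were Kctd18, Slc25a42 and Nat8b (0.93 each), for Pik3r1 Dcun1d4 (0.91), Pskh1 (0.86) and Acadl (0.86), and for Slc2a1 Arc, an immediate-early gene (0.94), Tctex1d2 (0.91) and Fbxo32 (0.90). Fbxo32, a ubiquitin ligase gene, belongs to the FOXO target list. Irs1 had Cebpa, a factor of fat cell differentiation, at 0.82, then Alkbh4 (0.79) and Cog2 (0.78). Ptpn1 had Gnmt (0.88), Ampd3 (0.85) and Il18 (0.83), and Insr, whose probes disagreed, had Vom1r23 (0.85) and Klk1c10 (0.84) among its closest genes. Apart from the AKT genes, the pair of members with the highest correlation over the 12 arrays was Ptpn1 and Slc2a1, at 0.59. Within groups they had 0.62, and Insr and Socs3 had 0.63.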

How the data were processed

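RNA of 12 mammary glands was hybridised to one-colour (Cy3) Agilent arrays. The authors deposited the scanner's intensity of every spot from Agilent Feature Extraction 10.7.3.1, after subtraction of the background and correction of trends within the array and without scaling between arrays. They also deposited values of each array's signal as a ratio to a constant of that array, which matched the scanner values at every spot to within 6.56e-05 of the value. Results come from the scanner values, with the other values as an alternative. The array annotation refers to rn4.

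Control spots (4259 of each array) and spots marked as outliers were left out. The 75th percentile of the gene spots was subtracted from the log2 intensity, and spots of a probe were averaged. A probe was tested if it was well above background on 3 or more of the 12 arrays. Groups were compared with limma 3.58.1 in R 4.3.3 (lmFit, contrasts.fit and eBayes, two-sided, 9.95 degrees of freedom with 1.95 from the prior), with the package data.table in version 1.17.8. The methods of the study name Rosetta Resolver, which was not used here. Intervals are 95% intervals of limma. The p-values set each difference against a spread between rats that is pooled over the 4 groups. With 3 rats per group the precision is limited. The script was tested on simulated data.

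The members and the gene lists were chosen with earlier results of these data known. A member stands for its probe with the highest mean signal, and second probes are described where they differ. Of the pathway lists, genes with an adjusted p under 0.05 are named, or otherwise the 3 with the lowest p of a comparison, and for each member the 3 genes with the highest correlation. Marker lists of 11 cell types or tissues were averaged per array. Promoters are windows at the starts listed by RefSeq on GRCr8. Some genes are left unnamed here and remain in the counts of their lists.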

Additional observations from a re-analysis of the deposited data

How the results depend on the processing

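The 4 counts of members called stayed at 0 under each of the 23 alternatives run for a diet comparison and the 22 run for the others, and at an unadjusted p under 0.05 the diet comparisons had 0 or 1 member and the comparison of the ages 3 or 4. Of the 36 differences of the members, 19 had the other sign under at least 1 alternative, in 45 cases in all, and 0 of them had passed the threshold. With the replicate number as a block, Ptpn1 at day 21 was 0.078, Pik3r1 at day 28 was -0.13 and the Irs1 interaction was 0.11. For the diet differences and the interaction this block compares only rats of equal number, 4a and 6a at day 21 and 4f and 6f at day 28. The arrays of NP 5a, NP 5f, LP 7c and LP 7f then add nothing to these values. With the slide row as a covariate, Irs1 at day 21 was 0.035 and Akt2 0.12. With the probes of a gene averaged, Irs1 at day 21 was 0.037, Insr at day 28 was 0.092, Insr between the ages was -0.068 and Irs1 -0.0022, and the Insr interaction was 0.066. Insr at day 21 kept its sign under that setting, at 0.026 against 0.25 with the brighter probe. With the normexp background (offset 50), Slc2a1 at day 28 was -0.0165, Insr 0.046, Irs2 between the ages -0.0195 and the Socs3 interaction 0.017.

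With each rat left out in turn, the difference between the diets at day 21 ran from -0.32 to 0.11 for Irs1, from -0.046 to 0.15 for Akt1, from -0.16 to 0.027 for Akt2 and from -0.094 to 0.016 for Ptpn1. At day 28 it ran from -0.030 to 0.16 for Akt1, from -0.15 to 0.0505 for Insr, from -0.079 to 0.39 for Pik3r1, from -0.056 to 0.13 for Slc2a1, from -0.0088 to 0.12 for Akt2 and from -0.0081 to 0.20 for Ptpn1. Between the ages it ran from -0.023 to 0.21 for Irs1, from -0.19 to 0.11 for Irs2 and from -0.14 to 0.0955 for Pik3r1. The interaction ran from -0.35 to 0.090 for Irs1, from -0.080 to 0.13 for Akt1, from -0.56 to 0.042 for Irs2 and from -0.23 to 0.017 for Socs3.

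The correlation of deviations between samples of equal replicate number ran from 0.0886 to 0.132 across the diets and from -0.055 to 0.38 across the ages. Across the diets an equal number cannot mark a litter, since each dam was given a single diet. Samples of unequal number were not set beside them. Whether the numbers pair the samples across the ages, or in another way across the diets, was therefore not settled. The block changed no call of a member, while Pik3r2 between the ages was no longer called with it (adjusted p = 0.117 in limma). Over all probes, 421 were called between the ages, against 53 with the block, 217 without a filter, 270 with normexp and 286 with the slide row, and 99 without NP 6a of day 21, 135 without LP 4f of day 28 and 160 without LP 6a of day 21. Its cause was not tested. Signal over background limits Insr most, whose second probe was well above background on 9 of 12 arrays.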

Other observations

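Of the basal epithelium, skeletal muscle, liver and brown fat markers, 0 were called in any comparison. For 6 basal epithelium markers the median difference of LP from NP was 0.68 at the earlier age and 0.86 at the later one, and that between the ages was -0.25. For 7 skeletal muscle markers these medians were -1.79, -0.74 and -1.34, for 6 liver markers -0.82, 0.12 and 0.71, and for the 4 tested brown fat markers -0.019, -0.076 and -0.79. Retn, a hormone gene of fat cells in the adipocyte list, was called between the ages at 0.69 (SE 0.13, adjusted p = 0.0383 in limma).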
